A study of Vitis vinifera with 6 samples.

Results

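The grapevine leaf array carried 34369 probes other than controls. The 179 described here are those whose locus name starts with neither VIT_ nor XLOC_, the names of the other 29798 and 4392 probes. They were chosen by name alone, whatever their signal. Their numbers in the array design run from 34191 to 34369, after all VIT and XLOC probes, and each of the 179 had 1 spot and a name of its own. Of the names, 130 were made of digits only, 29 were TC followed by digits, and 20 were other letters followed by digits.

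VIT names are the gene predictions of the grapevine reference genome, and XLOC names are of the kind that a transcript assembler gives to a locus. A reference gene set drawn from 1 plant misses genes that the annotation skipped and genes that other cultivars carry, and an array can be extended with expressed sequences from elsewhere to cover them. Neither the scanner files nor the reference gene table used here (0 of 179 names matched) pairs the names with genes, so no function, species or genomic position is given for any of them, and probe sequences were not used here.

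Leaf RNA came from 6 samples of Vitis vinifera cultivar Syrah, clone BVRC12, grown in a greenhouse from callus of anthers. Of these, 3 were from control plants and 3 from transgenic plants stably overexpressing VviCARPO, all fully expanded leaves, and per the labels the 3 in each group are biological replicates. CARPO belongs to the NAC family, plant transcription factors some of which act in ageing and ripening, and the comparison asked which leaf transcripts differ when it is overexpressed. The promoter of the transgene, what the control plants carry, and which transgenic line gave which sample were not stated in the sources used here. With no gene names in the files, the leaf could not be checked against photosynthesis genes.

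The labels were checked on the probe VIT_08s0007g07670, taken as CARPO from knowledge outside the files. In controls it read 12.4, 50.4 and 25.3 (replicates 1 to 3), and in the overexpression arrays 10.1, 15.1 and 271. It was high on the last array alone, so "labelled overexpression" is used throughout and every direction is that of the label. Over probes seen on all arrays, labelled overexpression replicate 3 correlated least with the others (r 0.810 to 0.854, across 18929 probes, which are not replicates). Per the file headers the arrays were read in 3 scans. Scan 1 held replicate 1 of each group. Scan 2 held 3 arrays, replicate 2 of each group and control replicate 3. Scan 3, on another slide, held only the remaining array, labelled overexpression replicate 3.

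Most of the 179 probes were dim in Syrah leaves. A probe was called seen on an array when Feature Extraction marked its spot well above background. Of the 179, 44 (24.6%) were seen on all 6 arrays, 52 (29.1%) on some arrays and 83 (46.4%) on none. Among VIT probes 67.6% were seen on all arrays and 14.5% on none, and among XLOC probes 26.5% and 41.9%. The 179 probes thus had shares near those of the XLOC probes. No test was made of these shares, since probes are not replicates. For the 83 the marks say only that no spot stood well above background. Their intensities, taken as the median over arrays, ran from 1.92 to 7.50.

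**Figure D1:**
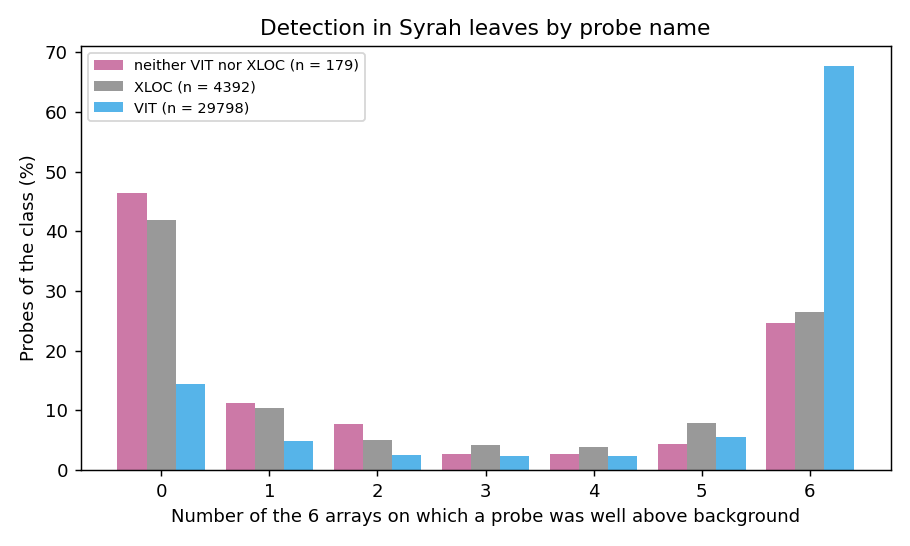
Share of probes (y axis, %) by the number of arrays on which they were well above background (x axis), for the 179 probes named neither VIT nor XLOC, 4392 XLOC probes and 29798 VIT probes. The first class and the XLOC probes peak at 0 and 6 arrays, with 46.4% and 41.9% at 0, while 67.6% of VIT probes lie at 6.

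By array, 73, 63 and 57 of the 179 were seen in control replicates 1, 2 and 3 and 72, 68 and 54 in labelled overexpression replicates 1, 2 and 3. The groups overlapped, with a mean of 35.9% ± 4.5 (SD, n = 3) for controls and of 36.1% ± 5.3 (SD, n = 3) for labelled overexpression. The lowest intensity that still counted as seen differed between arrays. It was 23.4 on labelled overexpression replicate 3 and between 7.53 and 12.9 on the other 5, so a spot had to be brighter there to be seen.

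The forms of the names differed in how often they were seen. Of the probes with TC names, 10 of 29 (34.5%) were seen on all arrays and 14 (48.3%) on none. Digit names gave 30 of 130 (23.1%) and 61 (46.9%), and the other names 4 of 20 and 8 of 20. Within the digit names, blocks of 9-digit names with the same leading digits, set apart after the names had been read, were less alike. In the block starting 147, 9 of 23 (39.1%) were seen on all arrays and 5 (21.7%) on none. In the block starting 225 the counts were 9 and 13 of 30, and in the block starting 297 they were 2 and 6 of 10. The block starting 326 had 4 of 37 (10.8%) on all arrays and 26 (70.3%) on none. These shares were not tested against each other.

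Of the 44 probes seen on all arrays, 43 had no spot marked as an outlier, and their levels are given as log2 relative to the 75th percentile of the array, which was an intensity of 668 to 1234. Brightness also depends on the probe, so levels are a description of spots and do not rank transcripts. The mean level over arrays ran from -5.21 to 7.66 with a median of -2.88, and 5 of the 43 lay above 0. As intensities, 20 of the 43 had a median over arrays under 100 and 5 had one over 1000. By array, the median level of the 43 was -2.96 ± 0.19 (SD, n = 3) for controls and -3.01 ± 0.31 (SD, n = 3) for labelled overexpression, a difference smaller than the spread. VIT probes seen on all arrays had -0.85 in controls and XLOC probes -3.39.

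The 5 probes with the highest mean level are named by rule. Probe 195610700 had an intensity of 251729, 149350 and 163859 in controls, and of 239146, 154158 and 180462 in the arrays labelled overexpression. Its mean level was 7.66, its spots were not saturated, and the groups overlapped (log2 difference 0.04, SE 0.44, limma adjusted p 0.972). Probe EE107709 had 3913, 4073 and 4393 in controls and 4517, 4844 and 3282 in the arrays labelled overexpression, with overlap (log2 difference 0.02, SE 0.30). The signs of both small differences turned under other settings, and neither has a settled direction.

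Probe TC162074 had an intensity of 1635, 1501 and 1842 in controls and of 1720, 2505 and 1670 in the arrays labelled overexpression. Its level varied little among controls, 0.85 ± 0.02 (SD, n = 3), against 1.08 ± 0.26 (SD, n = 3) in the other group. The groups overlapped (log2 difference 0.23, SE 0.22, limma adjusted p 0.656). Probe TC153402 had 1593, 1368 and 1946 in controls and 803, 2084 and 780 in the arrays labelled overexpression. The 2084 of replicate 2 was its highest intensity. As a level, at 0.76, that array fell between control replicates 2 and 1 (0.74 and 0.81). Probe 255640720, bright as well, had 4341, 3507 and 6824 in controls and 2494, 3755 and 6234 in the arrays labelled overexpression. The last spot was marked as an outlier and not used, and it is the 1 probe of the 44 left out of the 43. The fifth named by rule, 255560846, is described with the group comparison.

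Labelled overexpression was then compared with control by limma over the 23752 probes of any name that 1 group or both showed well above background throughout. Only 55 of the 179 (30.7%) qualified, 44 of them seen on all arrays. A probe could qualify through 1 group alone, which favours a difference without making one certain, so the counts below describe these 55 and not the 179. None of the 55 passed an adjusted p under 0.05 (limma, count 0), where 19 of all probes tested did (0.08%). At an unadjusted p under 0.05 there were 5 of 55 (9.09%), against 15.1% of all probes tested. The 1 higher and 4 lower stood against 5.85% and 9.21% of all probes. Where no spot was left out (54 of the 55), 7 probes (13.0%) had groups without overlap, against 24.2% of all probes. The 2 higher and 5 lower stood against 10.5% and 13.7%. Both shares turned without labelled overexpression replicate 2. There 14 of 56 had an unadjusted p under 0.05 (limma), against 20.6% of all probes. Groups did not overlap at 25 of 56, against 41.3%. With any other array left out, both shares stayed below those of all probes.

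Among the 44 tested that were seen on all arrays, differences ran from -2.59 to 1.32 on the log2 scale, with 28 above 0 and 16 below. Their median was 0.10, beside 0.027 over the 21154 probes tested that were seen on all arrays, and 4 (9.09%) exceeded 1 in size, beside 14.2%. The median size of a difference was 0.38 for the 44 and 0.35 for all such probes, and the median SE 0.38 and 0.32, so a typical difference was about as large as its error.

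**Figure D2:**
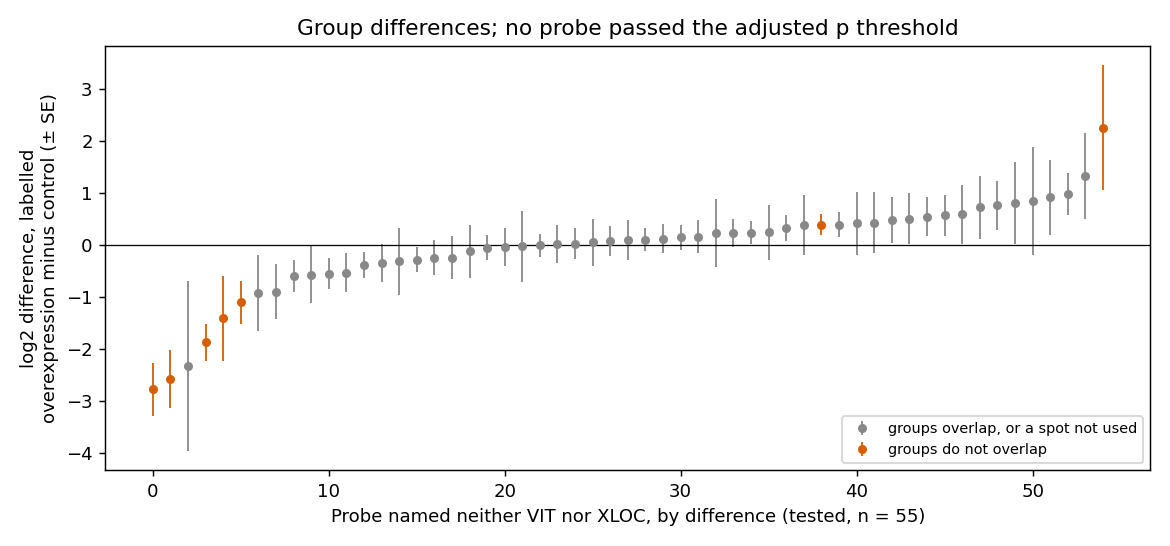
Log2 difference, labelled overexpression minus control, with its SE (y axis) for the 55 probes tested, in order of the difference (x axis). Probes whose groups did not overlap are in orange, 5 below 0 and 2 above. The lowest and the highest, at -2.78 and 2.25, are fitted values of probes not well above background in 1 group, for which only a bound holds.

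The 2 probes with the lowest differences among those seen on all arrays without overlap were TC143137 and 225426973. Probe TC143137 had an intensity of 258, 471 and 596 in controls, and of 27.9, 193 and 61.4 in labelled overexpression replicates 1 to 3. All 3 controls lay above every array labelled overexpression, which spread more widely than the controls. The control level was -1.14 ± 0.59 (SD, n = 3) and that of the other group -3.72 ± 0.96 (SD, n = 3), a log2 difference of -2.59 (SE 0.56, limma adjusted p 0.137). Probe 225426973 had 345, 268 and 559 in controls and 106, 92.6 and 106 in the arrays labelled overexpression, which were close to each other as read. Its level was -1.30 ± 0.37 (SD, n = 3) against -3.17 ± 0.54 (SD, n = 3), a log2 difference of -1.87 (SE 0.36, limma adjusted p 0.119).

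Neither passed the threshold. With normexp background correction, which here added an offset of 50 to each signal, the differences shrank to -1.20 and -1.10. Taken scan by scan, TC143137 was lower by label among the pair of arrays of scan 1 (-2.76) and among the 3 arrays of scan 2 (-1.88), and 225426973 likewise (-1.26 and -2.49). Scan 3 held no control. Among the settings tried, both passed only in the deposited processed table (limma adjusted p 0.0462 and 0.0202), where 13.5% of all probes passed and whose column for labelled overexpression replicate 3 follows the scanner signals of replicates 1 and 2 and not its own.

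One probe was seen on all control arrays and on none labelled overexpression. Probe 147840977 had an intensity of 33.7, 14.5 and 30.4 in controls, and of 3.21, 2.44 and 5.73 in the other group, where it was not well above background. The dim group thus has only a bound, per array the larger of its reading and of the faintest spot still seen, and controls were at least 2.11-fold higher (measured log2 means -5.22 and -8.01, limma adjusted p 0.113 in a test that it entered through the controls alone). Without labelled overexpression replicate 3, with its higher limit, the bound was at least 2.97-fold. In the deposited processed table the probe passed the threshold (limma adjusted p 0.0114). Its spots labelled overexpression were not well above background, so only a bound holds there too. With normexp background correction the measured difference was -0.02. Its offset of 50 draws dim readings such as these together by construction, and the cause was otherwise not tested. The remaining probes at an unadjusted p under 0.05 were 225470228 and 225424430. Probe 225470228 had an intensity of 333, 363 and 499 in controls and of 153, 384 and 102 in the arrays labelled overexpression. Its levels did not overlap, -1.23 ± 0.20 (SD, n = 3) against -2.33 ± 0.77 (SD, n = 3), and replicate 3 lay lowest (log2 difference -1.10, SE 0.41, limma adjusted p 0.293; -0.68 without replicate 3). Probe 225424430, the 1 that was higher, had 13.3, 7.44 and 9.53 against 14.6, 16.3 and 29.9, all close to the limit of being seen, with overlapping levels. It was seen on 1 of 3 controls and entered the comparison through the other group alone, so no size of difference is given.

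Over the 6 arrays, the 3 probes among the other 54 tested whose levels most resembled those of 147840977 were 225426973 (Pearson r 0.956), 224125136 (0.760) and TC143137 (0.678), given as a description, since arrays of a group and a scan share their source. Probe 147840977 was taken for its largest difference, so these r values in part repeat the group difference. Its readings labelled overexpression were not well above background.

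Of the 43 probes seen on all arrays, 1 was higher by label without overlap and 3 were lower, where 11% and 12.9% of all such probes were. Probe 255560846 had an intensity of 1249, 1023 and 1267 in controls and of 1216, 1836 and 1586 in the arrays labelled overexpression. As levels, which correct for the overall brightness of each array, the groups lay apart by a small step, 0.36 ± 0.09 (SD, n = 3) against 0.74 ± 0.15 (SD, n = 3). The log2 difference was 0.38 (SE 0.20, limma adjusted p 0.433), with 0.41 in scan 1 and 0.27 in scan 2.

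Probe 297736017 was seen on all arrays labelled overexpression and on no control. Its intensity was 5.88, 7.27 and 8.80 in controls and 8.66, 17.3 and 265 in labelled overexpression replicates 1, 2 and 3. The last array held nearly all of the signal. The group mean was at least 3.29-fold above the control bound, and at least 1.19-fold without replicate 3, which is also the array with the high CARPO probe. The measured log2 means were -4.74 and -6.99 (limma adjusted p 0.441 in a test that the probe entered through labelled overexpression alone).

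Further probes of the 179 read apart on labelled overexpression replicate 3, in both directions. Probe TC171508, named after its values were seen, had 402, 331 and 405 in controls, 160 and 560 in labelled overexpression replicates 1 and 2, and 4.71 in replicate 3, where it was not well above background. It was among 7 probes seen on every array but that one (3.91% of the 179, against 4.14% of VIT and 5.76% of XLOC probes). Another of them, 147841235, had 36.3 to 81.7 on the other 5 arrays and 7.20 there. The remaining 5 read 5.94 to 29.6 on it, under its limit of 23.4 but for TC154977, whose 29.6 was still not marked as seen. In the other direction, 3 probes were seen on that array alone (1.68%, against 1.64% and 2.44%), so both shares were near or below those of the other probes. Probe 147810700 read 98.7 there and 1.52 to 2.67 elsewhere. The other 2, 297741027 and TC172885, read 62.6 and 47.9 there, with at most 7.40 and 3.70 elsewhere. Leaf, line, slide and scan of this sample cannot be told apart with 1 array.

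**Figure D3:**
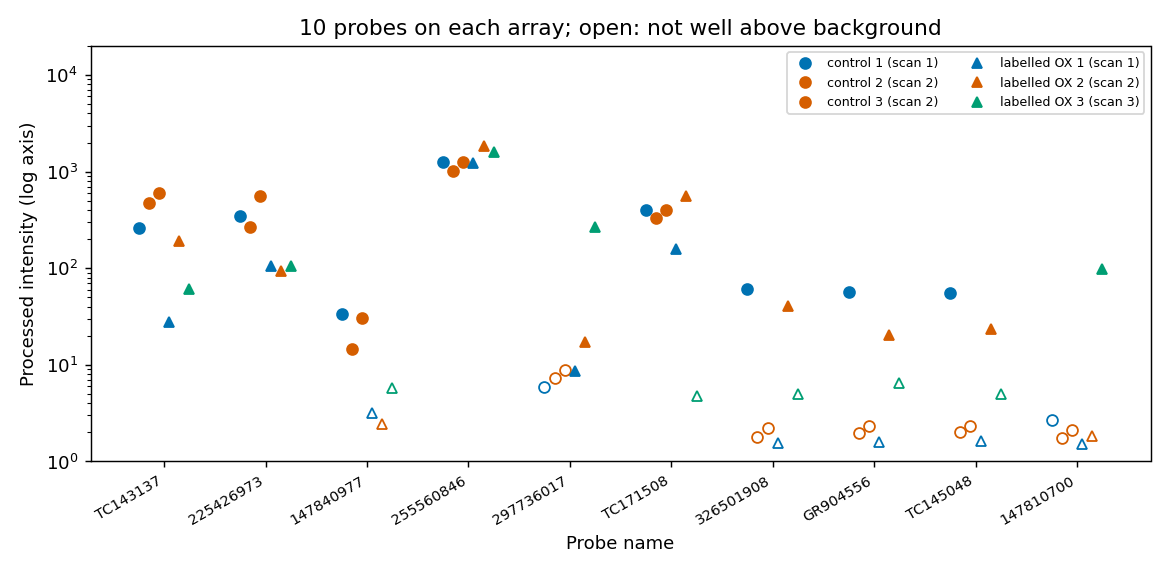
Processed intensity (y axis, log scale) of 10 probes on each array. Circles are controls, triangles labelled overexpression, colours the scan, and open symbols spots not well above background. TC171508 drops to 4.71 and 147810700 rises to 98.7 on labelled overexpression replicate 3, and 3 probes stand high on control replicate 1 and labelled overexpression replicate 2 alone.

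Some of the 43 probes were ordered by the scan and not by the label. At 15 of the 43 probes seen on all arrays (34.9%), all 3 arrays of scan 2 lay below all 3 others, and at 2 (4.65%) above. Over all probes seen on all arrays those shares were 11.2% and 5.12%. By class the share below was 10.4% for VIT and 23.3% for XLOC probes, whose levels are nearer to those of the 43. The gap at the 15 probes ran from 0.76 to 2.62 on the log2 scale with a median of 1.28. No p is given for this count, and the part of dimness, scan and leaf in it was not tested.

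Probe 326513122 showed the widest gap. Its intensity was 10.47, 12.4 and 10.4 on the arrays of scan 2, and 48.8, 59.8 and 57.6 on control replicate 1 and labelled overexpression replicates 1 and 3. Both sides held both labels, and the group difference was 0.84 (SE 1.04). Probe 225468093 had 44.2, 48.3 and 62.5 in scan 2 and 130, 131 and 224 on the other arrays. Probe 147787325 had 49.98, 47.8 and 62.4 against 160, 125 and 256. The probe 195610700 was among the 15 as well. At the 15 probes limma adjusted p for the label was 0.509 or higher. Their choice made a high p likely, since both sides of each gap held both labels. Probes 326513122, 225468093 and 147787325 were singled out after their values were seen.

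**Figure D4:**
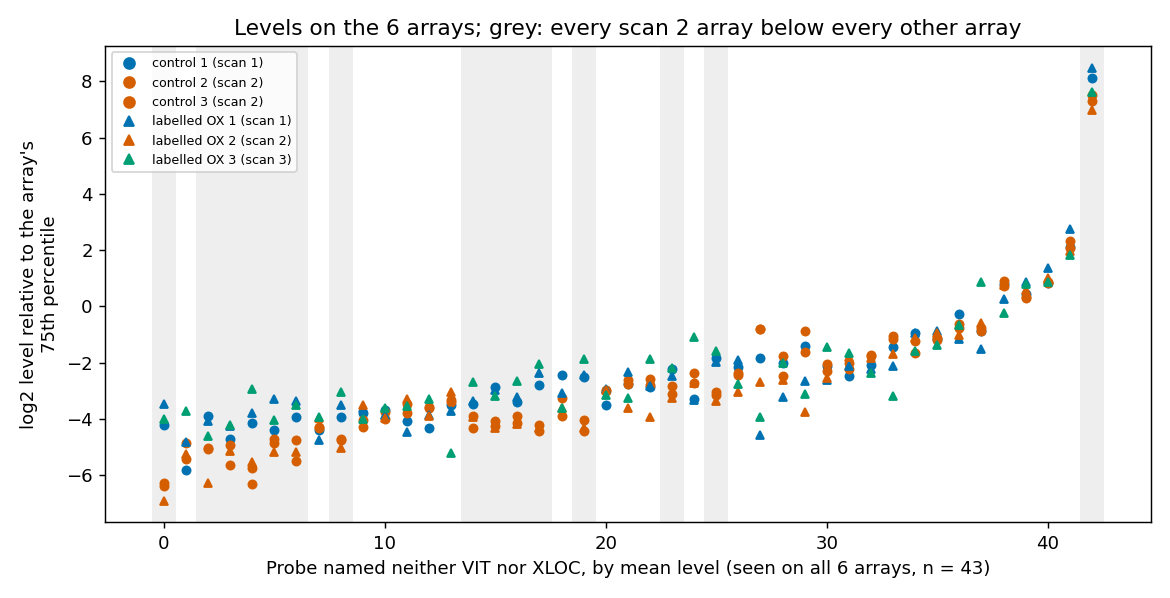
Log2 level relative to the array's 75th percentile (y axis) of the 43 probes seen on all arrays, in order of mean level (x axis). Symbols are groups and colours scans, and grey marks the 15 probes at which every scan 2 array lay below every other array, most of them at low level.

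The 52 probes seen on some arrays were also sorted by scan. A probe seen on 1 array, as 20 of them were, falls on one side by construction, in every class. Of the 52, 21 (40.4%) were seen only on arrays outside scan 2 and 8 (15.4%) only on arrays of scan 2. VIT probes seen on some arrays gave 26.3% and 11.8%, and XLOC probes 30.6% and 16.8%. Among the 21, 5 were seen on both arrays of scan 1 and nowhere else. They made up 2.79% of all probes named neither VIT nor XLOC, against 0.262% of VIT and 0.455% of XLOC probes. Among the 20 probes seen on 1 array, 8 were seen on labelled overexpression replicate 1, which had the lowest limit of all arrays (7.53), and 5 on control replicate 2.

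A separate set of 5 probes was seen on control replicate 1 and labelled overexpression replicate 2 and on no other array (2.79% of the 179, against 0.275% of VIT and 0.865% of XLOC probes). Probe 326501908 read 60.5 and 40.7 on those arrays, and 1.80, 2.20, 1.55 and 4.96 on control replicates 2 and 3 and labelled overexpression replicates 1 and 3. Probe GR904556 read 56.5 and 20.2 against 1.95, 2.36, 1.60 and 6.54. Probe TC145048 read 54.9 and 23.5 against 2.03, 2.33, 1.61 and 4.95. Outside the pair, all 3 lay near the lowest readings of any probe, which were 1.49 to 4.66 on those 4 arrays.

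TC140638 followed the same split more loosely, with 37.6 and 32.8 against 2.59 to 5.54, and 224070571 was near the limit, with 15.9 and 10.4 against 1.58 to 11.8. Control replicate 1 and labelled overexpression replicate 2 have different labels and different scans, and the file headers record slide 1 and position 1 for both. A position holds 1 array, so that record may be wrong for one of them. The part of that record in the pattern was not tested. The spots of the 5 probes lay apart on the array, in rows 154, 177, 373, 391 and 406. All 5 were chosen after their values were seen, and none entered the group comparison. A like split was read at 320147993, a probe seen on every array but labelled overexpression replicate 3, with 88.3 and 64.2 on the same pair and 17.1 to 22.6 on the other 4. EC957461 had 45.5 and 35.2 on the pair and 9.18 to 17.2 elsewhere. Not all of the others were under the limit at these 2 probes, with 3 of the 4 seen at 320147993 and 2 of the 4 at EC957461.

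**Figure D5:**
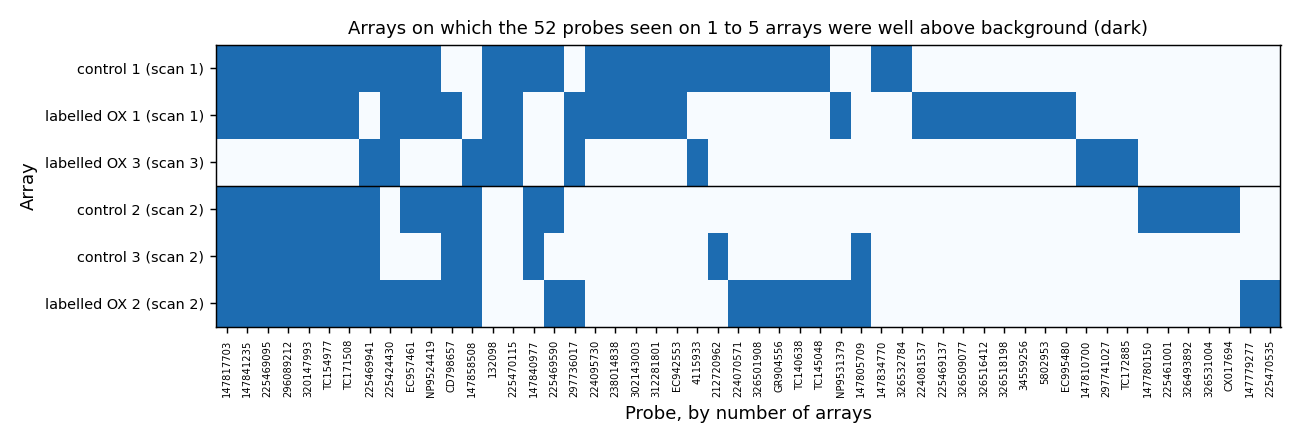
Arrays (y axis, scan 2 below the line) on which each of the 52 probes seen on 1 to 5 arrays (x axis) was well above background (dark). In the row of labelled overexpression replicate 3, the 7 leftmost probes are missing, and 5 probes are dark on control replicate 1 and labelled overexpression replicate 2 alone.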

How the data were processed

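Leaf RNA of 6 samples was labelled with Cy3, 1 Agilent array each. Per the file headers, Agilent Feature Extraction 10.5.1.1 gave each spot an intensity, corrected for background and for spatial trend on its own array and not scaled to other arrays. Marks of 0 or 1 record spots well above background and outlier spots. A deposited processed table holds intensity for 23065 probes, 50 of the 179 among them. How the authors made it is not given in the sources used here.

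Log2 of the processed signal minus that of the array's 75th percentile was taken. Outlier spots (1 among the 179) were treated as missing, with 2 usable spots needed per group. limma 3.58.1 in R 4.3.3 was fitted over all 23752 probes with Benjamini-Hochberg adjustment over all of them, and checked on simulated data. The number of arrays limits the precision.

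Probes were named by rule: the 5 highest levels, the 2 largest differences each way without overlap among probes seen on all arrays (1 was higher), probes seen in 1 group only, and 3 seen on 1 array. The probes and rules were chosen with earlier results of these data known. Groups and replicate numbers came from the sample titles. The normexp alternative used median spot signals and an offset of 50, which draws the levels of dim spots together by construction.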

Additional observations from a re-analysis of the deposited data

How the results depend on the processing

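The group comparison was recomputed with limma under 21 other settings, of which the scanner values at the probes of the processed table were chosen after seeing the data. Probes past the adjusted p threshold stayed at 0 in 20 of them and were 3 in the processed table, out of 50 (6%, against 13.5% of all its probes): TC143137 (-2.32), 225426973 (-1.92) and 147840977 (-3.14). Of the values in its column of labelled overexpression replicate 3, 99.97% lay within 0.1% of a multiple of the mean of replicates 1 and 2. Without that column the count was 0 (5 at an unadjusted p under 0.05).

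The 5 probes at an unadjusted p under 0.05 became 0 with normexp (6.47% of all probes). They were 3 with the filter on all 6 arrays (15.2%) and 11 in the processed table (22%, against 32%). With 1 array left out they were 3 to 14 (8.86% to 20.6%), the 14, of 56, without labelled overexpression replicate 2. The 7 without overlap became 2 with normexp (12.3% of all probes), 4 with the filter (23.8%), 13 in the processed table with or without that column (26%, against 40.4%), and 10 to 25 with 1 array left out (29.2% to 41.3%), where fewer arrays overlap less by construction. The filter tests fewer probes and the normexp offset draws dim levels together, both by construction. Otherwise the cause was not tested. The median difference, 0.09, was 0.05 to 0.26 with 1 array left out and turned to -0.01 under the block for scan and in the processed table without that column, all within its spread of 0.18.

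The difference of 195610700 turned to -0.0035 with normexp, -0.021 with quantile normalization and -0.094 under the block for scan, and spanned -0.36 to 0.40 with 1 array left out. That of EE107709 turned to -0.048 with normexp and -0.0088 with median scaling, and spanned -0.27 to 0.20. The other named differences kept their sign wherever tested. Normexp shrank 147840977 from -2.78 to -0.02, and 297736017, at 0.78 to 3.01 with 1 array left out, to 0.43.

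By the weaker mark for a positive and significant spot, 70 probes were seen on all arrays and 37 on none, against 44 and 83 (44 to 51 and 83 to 91 with 1 array left out). The median level of the 43 probes, here taken by array and averaged over arrays, was -2.98. It was -2.11 with normexp, -0.063 with median scaling and -3.97 with the percentile over probes seen on all arrays. The scalings and the normexp offset move it by construction. The replicate block gave 0 probes past the threshold and 3 at an unadjusted p under 0.05. Deviations from the group means of arrays with 1 number correlated at 0.253, 0.0499 and -0.0149; numbers 1 and 2 also share a scan, so these values do not show that numbers pair the samples.

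Dim spots limit what can be read: 83 of the 179 probes were never seen, and 124 could not be tested.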
